A study of Mus musculus with 8 samples.

Results

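The 10 genes described here are the core of MHC class I antigen presentation, chosen by symbol from the 52459 genes counted in 8 libraries of mouse leukaemia cells. They are the heavy chains H2-K1 and H2-D1, the light chain B2m, the transporter subunits Tap1 and Tap2, the loading factor Tapbp, the immunoproteasome subunits Psmb8, Psmb9 and Psmb10, and the transactivator Nlrc5. All 10 were found and all 10 passed the filter on low counts in each comparison. Together they held between 0.182% and 0.521% of a library's counts.

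Each library came from the splenic AE9a-positive cells of 1 moribund C57BL/6J mouse. AE9a is a truncated RUNX1-RUNX1T1 fusion protein that drives acute myeloid leukaemia in mice. All groups share the same model, in which cKit-positive marrow cells (genotype RTA shTet2) carried AE9a from a retrovirus together with a doxycycline-inducible hairpin against Tet2, a dioxygenase that oxidises 5-methylcytosine. Leukaemia cells (50000) were given with 500000 support marrow cells, so host and support cells may remain in the spleen, and the primary recipients had been irradiated at 6 to 8 weeks of age. The 2 mice labelled Tet2-restored (21 and 23, the restored-label mice) were secondary recipients taken off doxycycline and given PBS. The 2 ascorbate mice (28 and 30) stayed on doxycycline as secondary recipients and received ascorbate. Mouse 12 was the 1 primary recipient, on doxycycline. The 3 PBS knockdown mice (16, 17 and 19), also secondary recipients, stayed on doxycycline and received PBS. Doxycycline withdrawal and the return of Tet2 coincide in this design and cannot be told apart.

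Class I molecules show peptides from inside a cell to CD8 T cells, and their absence can be sensed by NK cells. Proteasomes cut proteins into peptides, the TAP transporter moves these into the endoplasmic reticulum, and tapasin (Tapbp) helps load them onto a heavy chain paired with beta-2 microglobulin. Interferon gamma raises most of these genes, swaps 3 catalytic proteasome subunits for Psmb8, Psmb9 and Psmb10, and induces Nlrc5, which acts at class I promoters. Lower class I on blood cancer cells is known as a route of escape from T cells.

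Of the members, 7 lie on chromosome 17, in or beside the mouse H2 complex (GRCm38, GENCODE vM21). Tapbp (33915899 to 33929292) and H2-K1 (33996017 to 34000347) come first, and then Psmb9 (34181987 to 34187764), Tap1 (34187553 to 34197225), Psmb8 (34197721 to 34201454) and Tap2 (34203527 to 34216321) follow each other. H2-D1 (35262730 to 35267499) lies further along. B2m is on chromosome 2 (122147686 to 122153083), and Psmb10 (105935735 to 105938444) and Nlrc5 (94434356 to 94527272) are on chromosome 8. Psmb9 and Tap1 run in opposite directions and overlap, by 5.79% and 3.87% of their exonic bases. Exonic overlap with another gene also touches 29.0% of Tapbp, 18.5% of Tap2 and 14.7% of Psmb8. Of all 50-base stretches of the transcripts, 9.63% of those of H2-K1 and 12.8% of those of H2-D1 occur in another gene too, so reads there could be counted for either gene or dropped.

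Promoter windows of 4 members are shown because these genes share a regulator and a route of induction. Each window runs from 250 bases before to 50 bases after a RefSeq start site (GRCm38.p6), on the gene's strand. The capitals mark, on either strand, the interferon-response motif GAANNGAAA, the NF-kB motif GGGATTCCC, the cyclic AMP element core TGACG and the CCAAT box. H2-K1 is at chr17:34000298-34000597 (minus strand), H2-D1 at chr17:35262844-35263143 (plus), B2m at chr2:122147437-122147736 (plus) and Tap1 at chr17:34187306-34187605 (plus).
H2-K1: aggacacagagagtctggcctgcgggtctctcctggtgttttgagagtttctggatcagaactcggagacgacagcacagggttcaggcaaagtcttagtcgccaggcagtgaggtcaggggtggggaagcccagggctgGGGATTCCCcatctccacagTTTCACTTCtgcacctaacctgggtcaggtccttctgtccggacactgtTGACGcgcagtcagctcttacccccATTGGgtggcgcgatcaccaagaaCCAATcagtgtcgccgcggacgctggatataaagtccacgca
H2-D1: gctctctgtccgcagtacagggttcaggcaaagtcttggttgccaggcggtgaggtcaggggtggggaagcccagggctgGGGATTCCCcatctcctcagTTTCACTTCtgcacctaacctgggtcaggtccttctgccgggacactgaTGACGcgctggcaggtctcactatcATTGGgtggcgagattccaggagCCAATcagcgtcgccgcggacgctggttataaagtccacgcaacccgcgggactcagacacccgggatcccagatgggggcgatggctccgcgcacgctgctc
B2m: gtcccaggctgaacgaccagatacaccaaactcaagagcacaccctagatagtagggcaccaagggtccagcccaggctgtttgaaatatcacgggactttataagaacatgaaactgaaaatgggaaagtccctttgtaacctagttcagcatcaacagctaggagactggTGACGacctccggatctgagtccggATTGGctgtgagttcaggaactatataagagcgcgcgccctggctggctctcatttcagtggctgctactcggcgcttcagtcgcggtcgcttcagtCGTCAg
Tap1: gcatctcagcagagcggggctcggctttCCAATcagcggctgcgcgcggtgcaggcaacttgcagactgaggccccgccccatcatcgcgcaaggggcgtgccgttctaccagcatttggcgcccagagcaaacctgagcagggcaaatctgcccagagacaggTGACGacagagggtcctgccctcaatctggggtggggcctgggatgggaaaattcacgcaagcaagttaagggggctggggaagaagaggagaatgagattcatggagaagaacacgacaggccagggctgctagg
The 2 heavy chain windows hold all 4 motifs in the same order, with the NF-kB motif ahead of the interferon-response motif. Their best local alignment covered 228 columns with 206 identities, or 90.4%. The B2m and Tap1 windows hold the TGACG core and a CCAAT box and no match to the other motifs as written. The B2m window does hold gaaactgaaa, which is GAAA, 2 bases and GAAA. The string searched does not match this form, so it is not marked. The lack of a match therefore does not show that a window lacks such an element. In the 27025 promoter windows of the same length, the interferon-response motif occurred in 7.56%, the NF-kB motif in 0.370%, the TGACG core in 21.0% and the CCAAT box in 37.9%. The Tap1 and Psmb9 windows share 275 bases on opposite strands, so 1 printed stretch stands for both. Of the members, 8 have a window in the table used. The Tapbp window held CCAAT boxes alone, and those of Psmb8 and Psmb10 none of the motifs. A match is a string of letters and says nothing about whether a factor binds there.

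Total counts ran from 18136978 in mouse 28 to 34197877 in mouse 12. Mitochondrial genes took 5.16% to 17.1% of counts, most in mouse 28 and least in mouse 12. Tet2, the hairpin's target, had 14.1 and 23.1 CPM (counts scaled to library size by TMM) in restored-label mice 21 and 23, 13.7 and 11.7 CPM in ascorbate mice 28 and 30, and 9.26 CPM in primary mouse 12, against 12.6, 12.8 and 13.4 CPM for mice 16, 17 and 19 under PBS knockdown. The interval of mouse 21 (12.6 to 15.7 CPM) overlapped those of the PBS knockdown mice, so its label is not borne out by its Tet2 level and results are also given without it. Leukaemic blast markers were uneven. Kit averaged 83.9 CPM in the mice labelled Tet2-restored, 90.6 CPM under ascorbate, 206 CPM in mouse 12 and 111 CPM in the PBS knockdown mice. Group means ran from 105 to 229 CPM for Runx1t1, from 223 to 452 CPM for Myb and from 1.19 to 7.86 CPM for Prtn3. Cd34 averaged 0.227, 0.737 and 1.80 CPM in the restored-label, ascorbate and PBS knockdown mice. Mpo averaged 0.875, 0.624 and 0.656 CPM in the same groups. In mouse 12 Cd34 had 19.8 CPM and Mpo 6.33 CPM. The granule genes Elane and Ctsg were at or near 0 in all libraries. Erythroid markers summed to between 1268 and 3252 CPM, so erythroid transcripts were abundant in cells labelled as myeloid leukaemia. Markers of macrophages (13.6 to 86.8 CPM), B and plasma cells (1.57 to 9.66 CPM), T cells (3.13 to 9.69 CPM), NK cells (0.256 to 5.23 CPM) and dendritic cells (1.41 to 9.47 CPM) were low in sum.

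On a scale per transcript length (FPKM, the authors' values), B2m stood highest in every library, between 639 and 2764. The heavy chains followed, H2-D1 at 138 to 428 and H2-K1 at 127 to 317 FPKM, and H2-D1 exceeded H2-K1 in 8 of 8 libraries. Tapbp came next at 68.5 to 158 FPKM. Psmb10 (33.7 to 79.9 FPKM), Psmb8 (29.1 to 70.4), Tap1 (15.0 to 62.6) and Tap2 (16.5 to 50.9) overlapped each other. Psmb9 lay lower at 8.87 to 27.2 FPKM, and Nlrc5 lowest at 0.04 to 1.75 FPKM. Nlrc5 thus varied most between libraries, and its message was scarce even where it was highest.

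**Figure D1:**
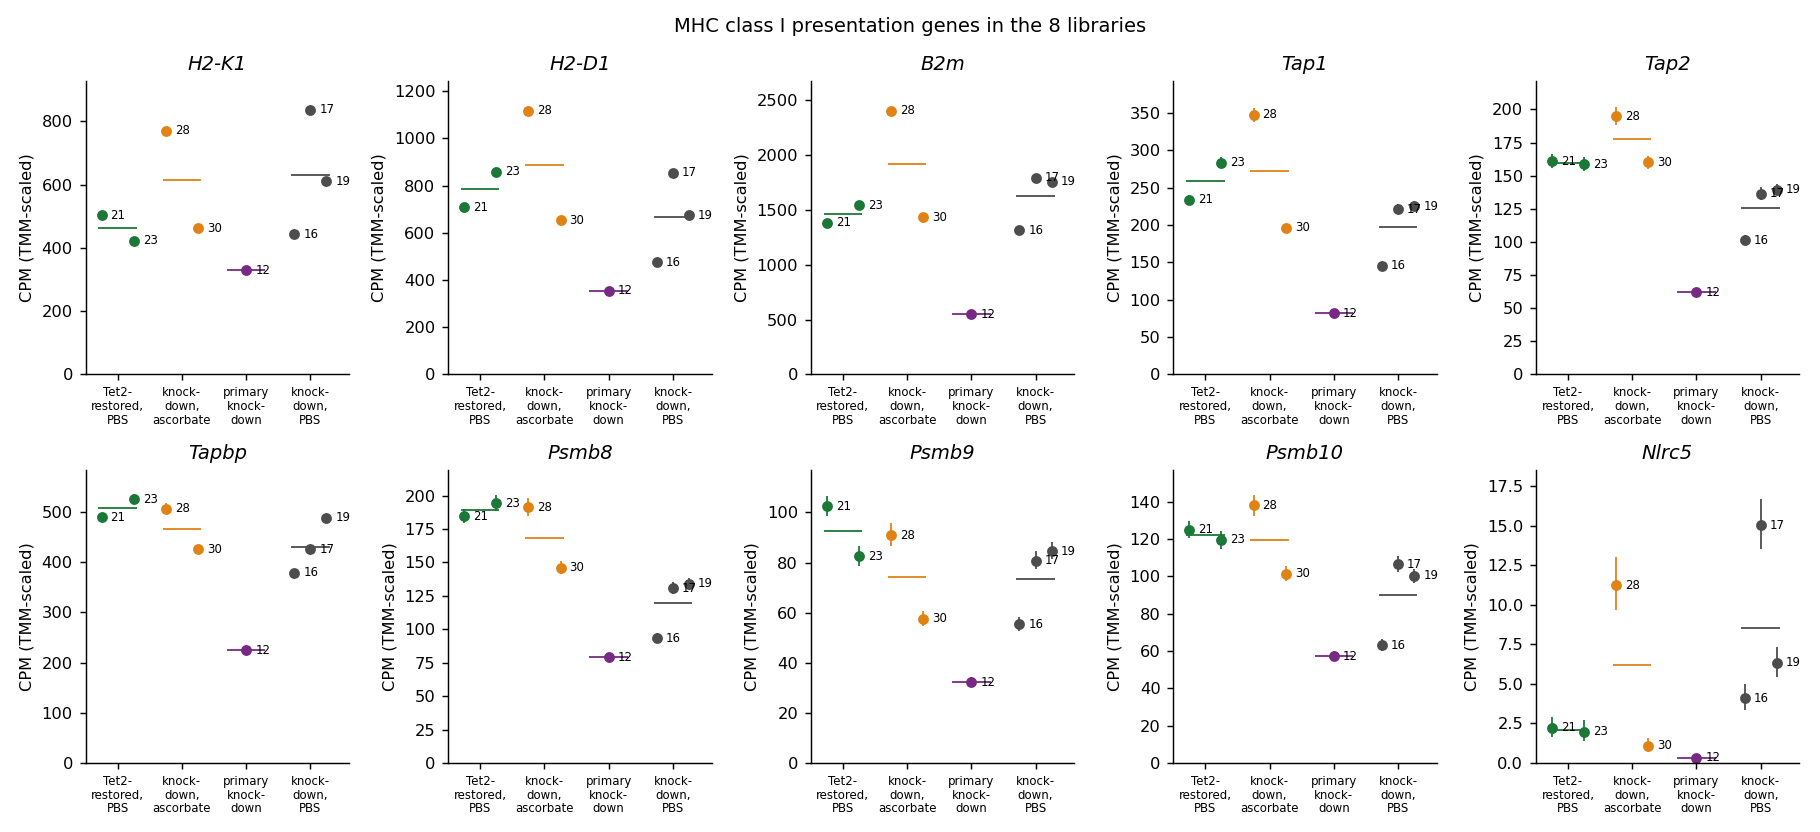
Level of each of the 10 genes in each library, in CPM on TMM-scaled totals (y axes start at 0), for mice labelled Tet2-restored, ascorbate, primary knockdown and PBS knockdown. Points are libraries with their mouse number and counting interval, lines are group means, and mouse 12 is the lowest point in each of the 10 panels.

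The heavy chains bind the peptide and face the T cell receptor. H2-K1 had 503 and 423 CPM in restored-label mice 21 and 23, 770 and 462 CPM in ascorbate mice 28 and 30, and 330 CPM in primary mouse 12, against 443, 837 and 611 CPM in PBS knockdown mice 16, 17 and 19. H2-D1 had 708 and 860 CPM in restored-label mice 21 and 23, 1118 and 654 CPM in ascorbate mice 28 and 30, and 355 CPM in primary mouse 12, against 475, 855 and 674 CPM in PBS knockdown mice 16, 17 and 19. Among the secondary recipients the groups overlapped for both genes, and the primary library lay below all others. B2m, the light chain that every class I heavy chain needs to reach the surface, had 1383 and 1544 CPM in restored-label mice 21 and 23, 2407 and 1434 CPM in ascorbate mice 28 and 30, and 548 CPM in primary mouse 12, against 1316, 1794 and 1760 CPM in PBS knockdown mice 16, 17 and 19. Mouse 28 was above all other libraries for B2m and H2-D1.

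Tap1 and Tap2 form the peptide transporter. Tap1 had 234 and 283 CPM in restored-label mice 21 and 23, 347 and 196 CPM in ascorbate mice 28 and 30, and 81.7 CPM in primary mouse 12, against 145, 221 and 225 CPM in PBS knockdown mice 16, 17 and 19. Tap2 had 161 and 159 CPM in restored-label mice 21 and 23, 195 and 160 CPM in ascorbate mice 28 and 30, and 62.0 CPM in primary mouse 12, against 101, 136 and 139 CPM in PBS knockdown mice 16, 17 and 19. All 4 libraries of mice labelled Tet2-restored or given ascorbate were above the 3 PBS knockdown libraries for Tap2, whereas for Tap1 mouse 30 fell among them. Of all genes tested, 24.9% had both restored-label libraries above the 3 PBS knockdown libraries, and 22.4% had both ascorbate libraries above them. The share of genes with both patterns was not counted. Tapbp, which bridges transporter and heavy chain, had 489 and 525 CPM in restored-label mice 21 and 23, 507 and 426 CPM in ascorbate mice 28 and 30, and 225 CPM in primary mouse 12, against 379, 426 and 488 CPM in PBS knockdown mice 16, 17 and 19. It varied least within groups of the 10 genes, with an SD of 0.16 on the log2 scale, against 0.43 for H2-K1 and 1.36 for Nlrc5.

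Psmb8, Psmb9 and Psmb10 replace Psmb5, Psmb6 and Psmb7 in the immunoproteasome. Psmb8 had 185 and 194 CPM in restored-label mice 21 and 23, 191 and 146 CPM in ascorbate mice 28 and 30, and 79.3 CPM in primary mouse 12, against 93.4, 131 and 134 CPM in PBS knockdown mice 16, 17 and 19. As for Tap2, both restored-label libraries lay above the 3 PBS knockdown libraries, as in 24.9% of genes tested. Both ascorbate libraries also lay above them, as in 22.4% of genes. The joint pattern was not counted over all genes, and the same 3 PBS knockdown libraries serve both. Psmb10 had 125 and 119 CPM in restored-label mice 21 and 23, 138 and 101 CPM in ascorbate mice 28 and 30, and 57.3 CPM in primary mouse 12, against 63.1, 106 and 100 CPM in PBS knockdown mice 16, 17 and 19. Psmb9 had 102 and 82.5 CPM in restored-label mice 21 and 23, 91.0 and 57.6 CPM in ascorbate mice 28 and 30, and 32.3 CPM in primary mouse 12, against 55.4, 80.8 and 84.6 CPM in PBS knockdown mice 16, 17 and 19. The groups of secondary recipients overlapped for Psmb9.

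Nlrc5, the class I transactivator, was represented by 54 and 39 counts in restored-label mice 21 and 23, 184 and 26 in the ascorbate mice 28 and 30, and 12 in primary mouse 12, against 102, 366 and 177 in PBS knockdown mice 16, 17 and 19. In CPM this was 2.23 and 1.97 in restored-label mice 21 and 23, 11.2 and 1.09 in the ascorbate mice 28 and 30, and 0.341 (interval 0.176 to 0.595) in mouse 12, against 4.12, 15.0 and 6.35 in PBS knockdown mice 16, 17 and 19. Both mice labelled Tet2-restored lay below all 3 PBS knockdown mice, and the ascorbate mice stood far apart, with mouse 28 second highest and mouse 30 below the other secondary recipients. Intervals cover counting error only.

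Nlrc5 and the other members did not rank the libraries alike. Mouse 17 had the highest Nlrc5 and ranked 6 of 8 for Tap2, Tapbp and Psmb8, whereas mouse 23 ranked 6 for Nlrc5 and 1 for Tapbp and Psmb8. Some libraries stood at one end for the whole set. Mouse 12 was the lowest of the 8 libraries for 10 of 10 members, against 19.2% of all genes tested. Mouse 16 was the lowest of the 3 PBS knockdown libraries for 10 of 10, against 38.1% of genes, and mouse 28 was above mouse 30 for 10 of 10, against 49.3% of genes. These orders were read off the values after they had been seen, and the members are not independent of each other.

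**Figure D2:**
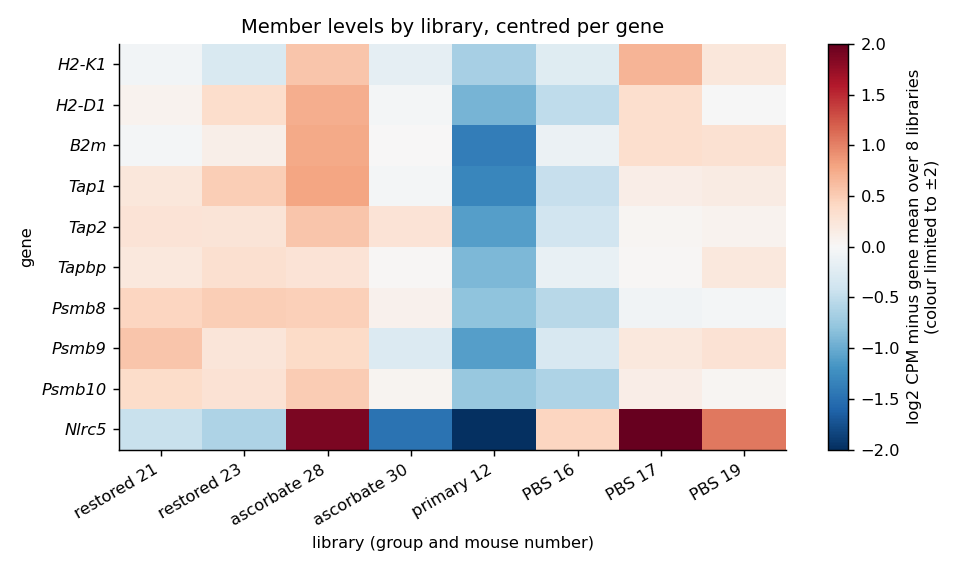
Log2 CPM of each gene minus its mean over the 8 libraries, one row per gene and one column per library (colour limited to 2 log2 units either way). The column of primary mouse 12 is blue throughout, that of ascorbate mouse 28 is red throughout, and the Nlrc5 row has the widest spread.

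The mice labelled Tet2-restored were set against the PBS knockdown mice to see whether class I genes differ when the hairpin is switched off. Of the members, 7 had estimates above 0 and 3 below, with a median log2 fold change of 0.28, against -0.0020 over all 12137 genes tested. None passed an adjusted p of 0.05 in edgeR's quasi-likelihood test, and neither did any other gene (0% called). At an unadjusted p under 0.05 there was 1 member, Psmb8, and 3549 genes. Psmb8 averaged 190 ± 6.93 CPM in mice labelled Tet2-restored (SD, n = 2) and 119 ± 22.6 CPM in the PBS knockdown mice (SD, n = 3), a log2 fold change of 0.67 (SE 0.19, edgeR adjusted p 0.0695). Tap1 (0.39, SE 0.26), Tap2 (0.35, SE 0.17), Tapbp (0.23, SE 0.15) and Psmb10 (0.44, SE 0.23) had both libraries above the 3 PBS knockdown libraries, with edgeR adjusted p between 0.215 and 0.335. Such a gap without overlap, higher, was found for 5 members and for 24.9% of genes, and lower for 1 member (Nlrc5) and 24.5% of genes. For Tapbp the gap lay between 489.2 CPM in mouse 21 and 488.5 CPM in PBS knockdown mouse 19, whose counting intervals overlapped. Nlrc5 had a log2 fold change of -2.01 (SE 0.95, edgeR adjusted p 0.204), with means of 2.10 ± 0.182 CPM in the mice labelled Tet2-restored and 8.50 ± 5.77 CPM under PBS knockdown. The heavy chains and B2m did not share a sign: H2-K1 stood at -0.45 (SE 0.28, edgeR adjusted p 0.314), H2-D1 at 0.23 (SE 0.27, 0.594) and B2m at -0.15 (SE 0.22, 0.683). Psmb9 stood at 0.33 (SE 0.24, 0.384).

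Without mouse 21 the restored-label group held 1 library, mouse 23, with its spread taken from the other groups, so only estimates are given. The members' median was then 0.32. Psmb8 was at 0.71, Tap1 at 0.53, Tap2 at 0.34, Tapbp at 0.29, Psmb10 at 0.41, Psmb9 at 0.17, H2-D1 at 0.37, B2m at -0.067, H2-K1 at -0.57 and Nlrc5 at -2.10, each with the sign it has with mouse 21. Psmb8 passed in the Wald test of DESeq2 (adjusted p 0.0199, with 6.74% of genes called higher) and in edgeR with no filter on low counts (adjusted p 0.00826, with 4.1% of genes called higher), and its adjusted p ran from 0.00826 to 0.328 over the alternatives run. Over all alternatives H2-K1 ran from -0.64 to -0.19, H2-D1 from 0.041 to 0.44, B2m from -0.55 to -0.067, Psmb9 from 0.16 to 0.47, Psmb10 from 0.20 to 0.57, Tap1 from 0.22 to 0.53, Tap2 from 0.22 to 0.42, Tapbp from 0.14 to 0.33 and Nlrc5 from -2.34 to -0.63, with no turn of sign and none called. The value of -0.55 for B2m came with the length offset (edgeR adjusted p 0.0923). In bulk samples, fewer cells of a type and less RNA per cell cannot be told apart. Macrophage markers summed to 35.3 and 13.6 CPM in restored-label mice 21 and 23, against 42.5, 73.5 and 86.8 CPM in PBS knockdown mice 16, 17 and 19, with all 13 tested markers below 0 (median -1.39). Their part in the values above was not tested.

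Ascorbate supports the catalytic activity of TET enzymes, and mice given it on doxycycline were compared with those given PBS. Of the members, 8 had estimates above 0 and 2 below, with a median log2 fold change of 0.32, against -0.012 over all genes tested. None passed, whereas 347 of 12137 genes did (2.86%). At an unadjusted p under 0.05 there were 2 members, Tap2 and Psmb8, and 2862 genes. Tap2 averaged 177 ± 24.7 CPM under ascorbate (SD, n = 2) and 126 ± 21.2 CPM under PBS (SD, n = 3), a log2 fold change of 0.49 (SE 0.17, edgeR adjusted p 0.136). Psmb8 averaged 169 ± 31.9 CPM under ascorbate and 119 ± 22.6 CPM under PBS (0.49, SE 0.19, edgeR adjusted p 0.163). These 2 genes had both ascorbate libraries above all PBS knockdown libraries, as did 22.4% of genes, and no member had both below, as did 23.5% of genes. Tap1 stood at 0.45 (SE 0.26), Psmb10 at 0.40 (SE 0.23), H2-D1 at 0.40 (SE 0.27), B2m at 0.23 (SE 0.22) and Tapbp at 0.10 (SE 0.15), with edgeR adjusted p from 0.309 to 0.705. Psmb9 (0.0028), H2-K1 (-0.043) and Nlrc5 (-0.49, SE 0.88) had edgeR adjusted p of 0.996, 0.940 and 0.764.

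Many of the ascorbate values depended on mouse 28, although Tap2, Psmb8 and Psmb10 stayed above 0 when it was left out. Without it the median of the members was -0.027, Tap2 was at 0.34 and Psmb8 at 0.29 (edgeR adjusted p 0.556 and 0.645, the highest of ranges from 0.0821 and 0.108 over the alternatives), H2-D1 at -0.033, B2m at -0.18, Tap1 at -0.011, Tapbp at -0.021, Psmb9 at -0.36 and Nlrc5 at -2.96, and 2 genes were called over the whole table. Without mouse 30 the median was 0.58, with H2-K1 at 0.27 and Nlrc5 at 0.39, and 7 genes were called. With mouse 16, 17, 19, 21 or 23 left out, the count over all genes was 5, 87, 15, 796 or 763, in that order, with 0 members each time. Mouse 28 also had the fewest counts and the largest mitochondrial share. Macrophage markers summed to 27.0 CPM in each ascorbate mouse, against 42.5 to 86.8 CPM in the PBS knockdown mice (13 of 13 tested markers below 0, with Vcam1, Mertk and Mrc1 the 3 called lower), and the part of either in these values was not tested. Of the leukaemic blast markers 1 was called higher, Prtn3, at 7.86 CPM under ascorbate and 2.47 CPM in the PBS knockdown mice.

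Set directly against each other, mice labelled Tet2-restored and ascorbate mice gave 4 member estimates above 0 and 6 below, with a median of -0.10 (all genes 0.014). No member passed in edgeR, none had an unadjusted p under 0.05 (1966 genes did), and 1 gene of 12137 passed (0.00824%). Estimates ran from -1.52 for Nlrc5 (SE 1.0, edgeR adjusted p 0.493) to 0.33 for Psmb9 (SE 0.27, edgeR adjusted p 0.581), and all members overlapped between the groups, whereas 22.8% of genes were separate and higher and 22.1% separate and lower. Without mouse 28 the median of the members was 0.27, and without mouse 21 it was -0.017. Both comparisons with PBS share the same 3 PBS knockdown libraries, so a member that stands low in those 3 is above 0 in both.

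**Figure D3:**
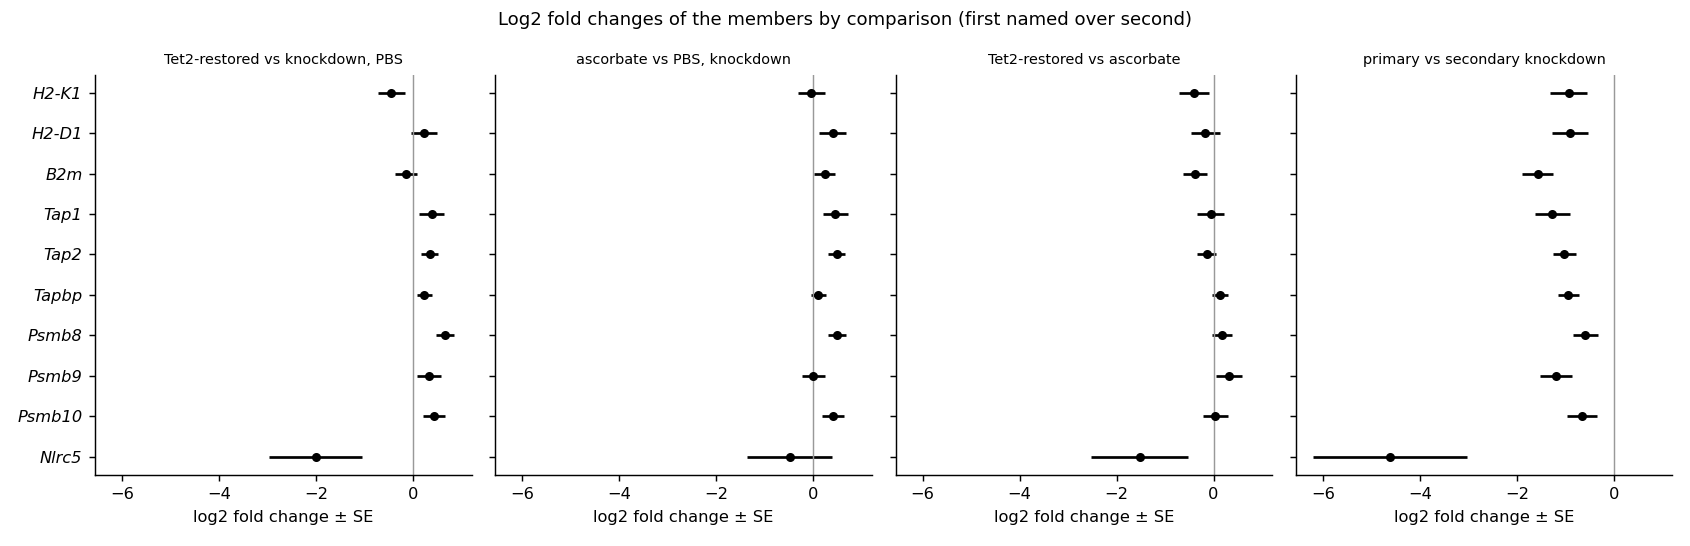
Log2 fold change of each gene with its standard error (bars) from edgeR in 4 comparisons, the group named first over the group named second in each panel title. The widest bars belong to Nlrc5, and in the panel of primary over secondary knockdown the 10 points lie left of 0.

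The primary recipient was set against the secondary PBS knockdown mice, which differ from it by passage and by the PBS given. All 10 members were lower in the primary library than in each of the 3 PBS knockdown libraries, a pattern that 29.7% of genes shared (31.8% were above all 3). The median log2 fold change was -0.98, against -0.011 over 13024 genes tested. No member passed in edgeR, and 15 genes did (0.115%). At an unadjusted p under 0.05 there were 9 members, all but Psmb10, and 1183 genes. The primary group has 1 library, which is taken to have the spread of the remaining groups, so none of its values has a replicate check.

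B2m was lowest relative to the PBS knockdown mice among the abundant members, at 548 CPM in mouse 12 and 1623 ± 266 CPM in the PBS knockdown mice (SD, n = 3), a log2 fold change of -1.57 (SE 0.32, edgeR adjusted p 0.131). Tap1 had a log2 fold change of -1.27 (SE 0.36), Psmb9 -1.19 (SE 0.33), Tap2 -1.02 (SE 0.24) and Tapbp -0.94 (SE 0.21), with edgeR adjusted p of 0.277, 0.274, 0.180 and 0.151. H2-K1 (-0.93, SE 0.38) and H2-D1 (-0.91, SE 0.37) had edgeR adjusted p of 0.499 and 0.497. Psmb10 (-0.65, SE 0.31) and Psmb8 (-0.59, SE 0.26) were nearest to 0 (edgeR adjusted p 0.570 and 0.529). Nlrc5 in mouse 12 was 0.0401 of its PBS knockdown mean, with a fitted log2 fold change of -4.62 (SE 1.58, edgeR adjusted p 0.426).

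Other tools called some of these. The Wald test of DESeq2 called 6 members lower (B2m, Tap1, Tap2, Tapbp, Psmb9 and Nlrc5), against 1.21% of genes. In limma voom 3 were called lower (B2m, Tap2 and Tapbp), against 0.622% of genes, and in edgeR with no filter on low counts 7 (the heavy chains, B2m, Tap1, Tap2, Tapbp and Psmb9), against 0.924% of genes. Under each of the alternatives run, all 10 estimates stayed below 0. With mouse 16, 17, 19, 21, 23, 28 or 30 left out, the count over all genes was 45, 6, 9, 10, 9, 27 or 28, in that order, with 0 members each time. Mouse 12 also had the most counts and the smallest mitochondrial share. Its log2 ratios to the PBS knockdown mean were higher for longer transcripts across genes (Spearman's rho 0.38, a description), and trends of like or larger size were found in PBS knockdown mice 16 (0.45) and 17 (-0.42) and restored-label mouse 21 (-0.50). With a per-library length offset, the median of the members was -0.94 and B2m, the member with the shortest transcript, stood at -1.21 (edgeR adjusted p 0.0979, with 1.38e-06 to 0.248 over the alternatives).

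Of the markers of other cells, none was called in the primary library. Every list of them but that of B and plasma cells summed lower there than in each PBS knockdown mouse. Macrophage markers summed to 24.3 CPM in mouse 12, against 42.5 to 86.8 CPM in the PBS knockdown mice, with 13 of 13 tested below 0 (median -1.55) and Marco at 0 counts in mouse 12 and in PBS knockdown mouse 17. Dendritic cell markers summed to 1.85 CPM in mouse 12, against 2.74 to 9.47 CPM in the PBS knockdown mice. Itgax alone had 1.19 CPM in mouse 12 and averaged 4.37 CPM in the PBS knockdown mice. Siglech and Cd209a were at 0 counts in mouse 12 and in PBS knockdown mice 16 and 17. T cell markers summed to 5.00 CPM in mouse 12, against 8.63 to 9.69 CPM in the PBS knockdown mice. Most of this was Lck, with 4.35 CPM in mouse 12 and a mean of 7.54 CPM in the PBS knockdown mice. The other listed T cell markers had at most 0.170 CPM in mouse 12 and means of at most 0.343 CPM in the PBS knockdown mice. Of the 10 listed, 3 were tested. For NK cell markers the sums were 0.256 CPM in mouse 12 and 0.686 to 2.94 CPM in the PBS knockdown mice. Nkg7 alone had 0.170 CPM in mouse 12 and averaged 1.20 CPM in the PBS knockdown mice. Of the 8 listed NK cell markers, 2 were tested. For erythroid markers the sums were 1500 CPM in mouse 12 and 1886 to 3252 CPM in the PBS knockdown mice. B and plasma cell markers were higher in sum, at 9.66 CPM in mouse 12 and 6.99 to 8.88 CPM in the PBS knockdown mice. Jchain alone had 6.36 CPM in mouse 12 and averaged 1.44 CPM in the PBS knockdown mice. Of the 8 tested B and plasma cell markers, 6 were below 0 (median -1.08). Leukaemic blast markers were higher in sum, at 872 CPM in mouse 12 and 442 to 683 CPM in the PBS knockdown mice, with 7 of 8 above 0. The part of these cells in the members' values was not tested.

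Ratios between members do not depend on how a library is scaled, and these ratios were chosen after the values had been seen. They can still shift with the length trend of a library where the genes compared differ in length. No length offset was applied to them. H2-K1 over H2-D1, from the authors' FPKM, was 0.702 and 0.486 in restored-label mice 21 and 23, 0.681 and 0.699 in the ascorbate mice 28 and 30, and 0.919 in primary mouse 12, against 0.923, 0.969 and 0.897 in PBS knockdown mice 16, 17 and 19. The 4 libraries of mice labelled Tet2-restored or given ascorbate thus lay below the 4 others. How often ratios of other gene pairs show such a gap was not counted. The mean was 0.594 ± 0.153 in the mice labelled Tet2-restored (SD, n = 2), 0.690 ± 0.0124 under ascorbate (n = 2) and 0.929 ± 0.0364 in the PBS knockdown mice (n = 3). The log2 difference from PBS knockdown was -0.67 for the mice labelled Tet2-restored and -0.43 for ascorbate. Each had a two-sided exact permutation p of 0.200, the smallest that 2 against 3 libraries can give, and 0.600 after Benjamini-Hochberg adjustment over 15 such tests. The first stood at -0.93 without mouse 21 and at -0.40 without mouse 23, and over all libraries left out in turn the second ran from -0.46 to -0.40. Part of the reads of these genes could have gone to other class I genes, as said above.

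The heavy chains were also read in sum, which does not depend on how counted reads were split among them. Reads dropped because they matched several genes are not recovered by it. The sum took the listed class I heavy chain genes with an H2 symbol (21 genes), without Mr1, Cd1d1, Cd1d2, Fcgrt and Hfe. It reached 1605 and 1668 CPM in restored-label mice 21 and 23, 2292 and 1396 CPM in ascorbate mice 28 and 30, and 860 CPM in primary mouse 12, against 1201, 2048 and 1634 CPM in PBS knockdown mice 16, 17 and 19. H2-K1 and H2-D1 made up 75.4% to 82.7% of this sum. Its log2 fold change was 0.0088 (SE 0.25) for the mice labelled Tet2-restored and 0.17 (SE 0.25) for ascorbate against PBS knockdown, and -0.92 (SE 0.34) for the primary library, with edgeR adjusted p of 0.986, 0.696 and 0.419. The sum overlapped between groups of secondary recipients and was lowest in mouse 12.

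For the proteasome, each immunoproteasome subunit was set over the constitutive subunit it replaces. Psmb8 over Psmb5 was 2.56 and 2.86 in restored-label mice 21 and 23, 2.64 and 1.86 in the ascorbate mice 28 and 30, and 1.28 in primary mouse 12, against 1.63, 1.81 and 2.28 in PBS knockdown mice 16, 17 and 19. Psmb10 over Psmb7 was 1.65 in both restored-label mice 21 and 23, 1.66 and 1.27 in the ascorbate mice 28 and 30, and 0.755 in primary mouse 12, against 0.958, 1.30 and 1.33 in PBS knockdown mice 16, 17 and 19. Psmb9 over Psmb6 was 0.256 and 0.214 in restored-label mice 21 and 23, 0.220 and 0.163 in the ascorbate mice 28 and 30, and 0.127 in primary mouse 12, against 0.233, 0.222 and 0.289 in PBS knockdown mice 16, 17 and 19. The primary library was lowest for each of these 3 ratios, while the constitutive subunits were near the PBS knockdown level there (log2 fold change -0.014 for Psmb5, -0.23 for Psmb6 and 0.030 for Psmb7, edgeR adjusted p 0.991, 0.813 and 0.974, with the sign of Psmb5 and Psmb7 turning under some alternatives). Mice labelled Tet2-restored were above the PBS knockdown mice for the first 2 ratios (log2 differences 0.52 and 0.48, two-sided exact permutation p 0.200 each, the smallest possible) and overlapped them for Psmb9 over Psmb6 (-0.075, exact p 0.800). Under ascorbate both libraries were below all PBS knockdown mice for Psmb9 over Psmb6 (-0.38, exact p 0.200), with mouse 28 (0.220) close to mouse 17 (0.222). They overlapped the PBS knockdown mice for the others (0.23 and 0.29, exact p 0.4 and 0.6). The part of length trends in these ratios was not tested. For the mice labelled Tet2-restored, Psmb8, Psmb9 and Psmb10 themselves stood at 0.667, 0.329 and 0.442. With the length offset they stood at 0.537, 0.290 and 0.205. Tap1 over Tap2 overlapped between the groups of secondary recipients, with log2 differences of 0.051 for the mice labelled Tet2-restored and -0.073 for ascorbate (exact p 0.800 each).

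**Figure D4:**
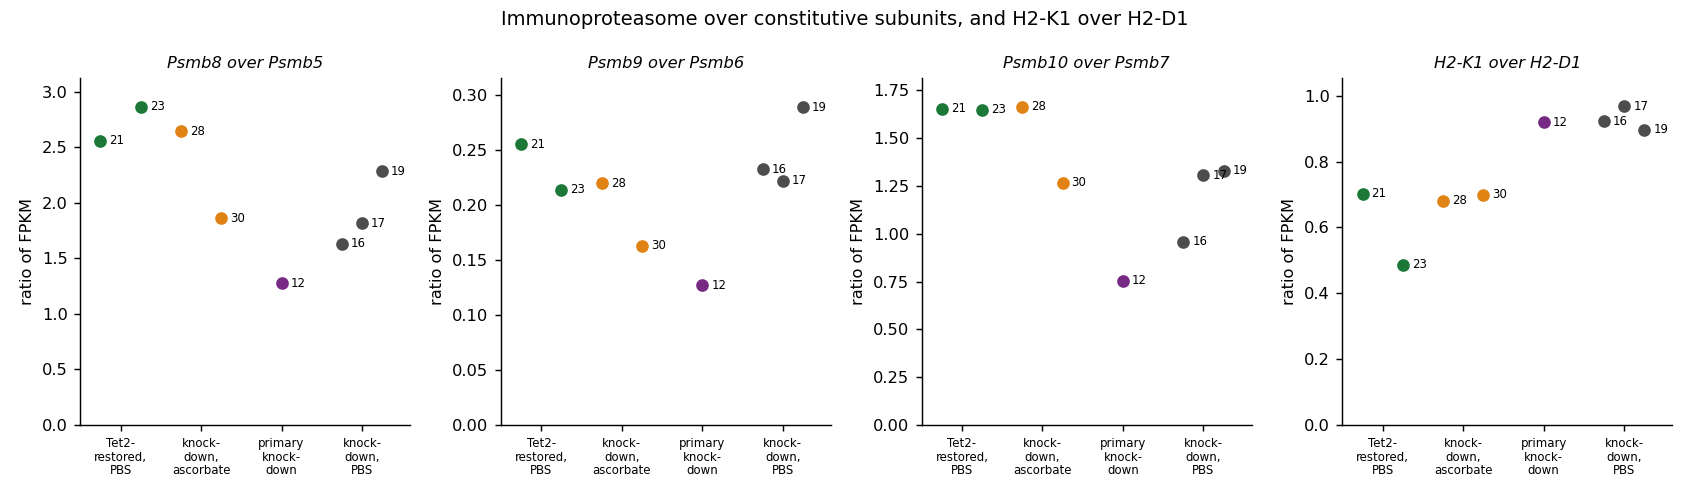
Ratio of FPKM values in each library (points with mouse numbers, y axes from 0) for the 3 immunoproteasome subunits over their constitutive counterparts and for H2-K1 over H2-D1. In the last panel the mice labelled Tet2-restored and the ascorbate mice sit between 0.486 and 0.702, and mouse 12 and the PBS knockdown mice between 0.897 and 0.969.

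Genes around the members were read from fixed lists. Other class I heavy chains, such as the non-classical H2-T23, had 11 of 26 listed genes tested and 0 called in each comparison, with medians of 0.19 for the mice labelled Tet2-restored, 0.072 for ascorbate and -0.97 for the primary library against PBS knockdown. H2-T23, whose product presents leader peptides to NK cell receptors, averaged 245 CPM in the mice labelled Tet2-restored, 215 CPM under ascorbate and 103 CPM in primary mouse 12, against 183 CPM in the PBS knockdown mice. It stood at a log2 fold change of 0.42 (SE 0.18, edgeR adjusted p 0.159) for the mice labelled Tet2-restored and -0.82 (SE 0.25, edgeR adjusted p 0.311) for the primary library. Cd1d1, which presents lipids, had 0 counts in both mice labelled Tet2-restored, which allows up to 0.124 and 0.152 CPM, and ranged from 0.0403 to 0.903 CPM in the PBS knockdown mice, the lowest of which lies under those limits.

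The peptide loading partners had 12 of 12 tested and 0 called in each comparison, with medians of -0.34, -0.065 and 0.087 for the mice labelled Tet2-restored, ascorbate and the primary library against PBS knockdown. Uggt1, which checks the folding of glycoproteins, averaged 113 CPM in the mice labelled Tet2-restored and 202 CPM in the PBS knockdown mice (log2 fold change -0.83, SE 0.18, edgeR adjusted p 0.0520). Hspa5, the main chaperone of the endoplasmic reticulum, averaged 660 CPM in the mice labelled Tet2-restored and 936 CPM under PBS knockdown (-0.51, SE 0.18, edgeR adjusted p 0.0993). Of proteasome activators and assembly factors, 7 of 8 were tested and 0 called. Psme4, which caps proteasomes as PA200, averaged 57.1 CPM in the mice labelled Tet2-restored and 122 CPM in the PBS knockdown mice (-1.09, SE 0.19, edgeR adjusted p 0.0502). Psme1, a subunit of the interferon-inducible activator PA28, averaged 449 CPM in the mice labelled Tet2-restored and 327 CPM under PBS knockdown (0.46, SE 0.16, edgeR adjusted p 0.110).

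Among 19 regulators of class I transcription, 1 was called, under ascorbate against PBS, where 2.86% of all genes tested were called. Nfyb, a subunit of the factor that binds CCAAT boxes, fell to 36.1 CPM under ascorbate, against 58.6 CPM in the PBS knockdown mice (log2 fold change -0.71, SE 0.15, edgeR adjusted p 0.0448). This call was lost with any 1 library of the compared groups left out, with edgeR adjusted p of 0.214, 0.159, 0.111, 0.0815 or 0.163 for mouse 28, 30, 16, 17 or 19, in that order. The list's median was -0.12 for the mice labelled Tet2-restored, -0.087 for ascorbate and 0.0028 for the primary library.

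Of the interferon gamma receptor and targets, 16 of 23 were tested under ascorbate, with 1 called higher, 1 called lower and a median of -0.48. Over all genes tested, 2.86% were called in that comparison. Icam1, an adhesion molecule, rose to 58.3 CPM under ascorbate, against 30.6 CPM in the PBS knockdown mice (0.92, SE 0.16, edgeR adjusted p 0.0298). Gbp7, an interferon-inducible GTPase, fell to 89.0 CPM under ascorbate, against 212 CPM in the PBS knockdown mice (-1.26, SE 0.23, edgeR adjusted p 0.0322). Without mouse 28, 30, 16, 17 or 19, Icam1 had edgeR adjusted p of 0.133, 0.130, 0.107, 0.0652 or 0.0922, in that order, and no longer passed. Gbp7 no longer passed without mouse 28 or 30 (0.140 each), 16 (0.104) or 19 (0.0922), and neither gene turned direction. In the mice labelled Tet2-restored none of the 16 was called, and 8 were above 0 and 8 below. In the primary library 17 of 18 tested targets were below 0, with a median of -1.19 and none called. Igtp, an interferon-inducible GTPase, had 40.9 CPM in mouse 12 and 121 CPM in the PBS knockdown mice (-1.56, SE 0.29, edgeR adjusted p 0.112). Irgm1, another such GTPase, had 122 CPM in mouse 12 and 299 CPM under PBS knockdown (-1.29, SE 0.29, edgeR adjusted p 0.151). Both passed with DESeq2, voom and no filter on low counts, which called 1.21%, 0.622% and 0.924% of genes lower.

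Class II genes, which present peptides to CD4 T cells, had 12 of 14 tested in the secondary recipients and 0 called, with medians of -0.17 for the mice labelled Tet2-restored and 0.25 for ascorbate. H2-Oa, part of a modulator of class II loading, averaged 57.8 CPM in the mice labelled Tet2-restored and 25.2 CPM in the PBS knockdown mice (1.20, SE 0.21, edgeR adjusted p 0.0502). H2-DMa, part of the class II loading factor, averaged 10.6 CPM in the mice labelled Tet2-restored and 3.46 CPM under PBS knockdown (1.62, SE 0.33, edgeR adjusted p 0.0502). Without mouse 21, which leaves 1 restored-label library, Uggt1, Hspa5, Psme4 and H2-Oa stood at -1.01, -0.746, -1.23 and 1.25. These 4 and H2-DMa passed with DESeq2 on all secondary libraries, where 1951 of 12137 genes were called. The edgeR adjusted p of 0.0502 given above was the smallest over all genes tested in that comparison. In the primary library 12 of 13 class II genes were below 0, with a median of -1.15 and none called. Of ligands for NK and T cell receptors, 6 of 11 were tested and 1 was called, under ascorbate, where 2.86% of all genes were called. Nectin2, a ligand of activating and inhibitory receptors, rose to 62.7 CPM under ascorbate, against 30.3 CPM in the PBS knockdown mice (1.04, SE 0.23, edgeR adjusted p 0.0454). Nectin2 no longer passed with library totals (0.0714), on the FPKM scales (0.0523 and 0.0528), or without mouse 28 (0.132), 30 (0.188), 16 (0.146), 17 (0.0887) or 19 (0.0842).

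Genes whose pattern over the 8 libraries was most like that of 3 members were found among 8473 genes, by the root mean square difference of centred log2 CPM. For Nlrc5, whose own root mean square deviation was 1.68, they were Ifitm3 (difference 0.81), Aqp1 (0.90) and Oasl2 (0.92). For H2-K1 (own deviation 0.43) they were Epor (0.16), Tmem14c (0.20) and Tesk1 (0.21). For Tap1 (own deviation 0.60) they were Rpl37rt (0.15), Ube2l6 (0.17) and Unc93b1 (0.18). These are descriptions over 8 libraries that include the low values of mouse 12.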

How the data were processed

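RNA from 8 mice was measured by RNA-seq of poly(A) RNA. The deposited tables hold, per the file headers, the authors' raw counts and their FPKM values for 52459 gene symbols. Per the submitters' processing notes, the tools were STAR, featureCounts and DESeq2 and the build was mm10 (GRCm38). Versions, settings and strand are not given in the sources used here, so reads of overlapping genes cannot be told apart. CPM, used for levels, was computed on TMM-scaled totals. FPKM was used between genes. Comparisons were tested with edgeR 4.0.16 (R 4.3.3; quasi-likelihood, robust, TMM, filterByExpr with a minimum count of 10) on the 7 secondary libraries in 3 groups, or all 8 in 4 groups for the primary one. P-values were adjusted over all genes tested by the Benjamini-Hochberg method at 0.05. The procedure was also run on simulated counts with changes larger than those of most members, the same spread for all genes and no length trend. That run does not show how the tests perform on changes of the members' size. Alternatives used DESeq2 1.42.0 and limma 3.58.1 (voom, and trend on log2(FPKM + 0.1) or log2(FPKM + 1)), other scalings, filters and sets of libraries, a length offset, and each library left out. The members, gene lists and rules were chosen with earlier results of these data known. The rule for named genes took all members, each pathway gene that passed, and from a pathway list with none passing the 2 with the smallest p. Igtp, Irgm1 and Prtn3 were chosen after their values were seen. For 1 gene of the list of class I regulators, the values are not reported here. Nothing in the labels gives a batch, and separate mice are taken as replicates.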

Additional observations from a re-analysis of the deposited data

How the results depend on the processing

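Counts of called genes moved most. For mice labelled Tet2-restored against PBS knockdown, the 0 genes became 367 with DESeq2 size factors, 1951 with DESeq2, 2207 with no filter on low counts and 321 with a filter of 1 CPM in 2 libraries (0 to 1692 with each library left out), and 1 member, Psmb8, was called by DESeq2 and with no filter. For ascorbate, the 347 genes became 1339 with DESeq2, 1011 with limma voom, 1498 with no filter, 222 with log2(FPKM + 1) and 855 with only the groups compared (2 to 796 with libraries left out). With library totals in place of TMM the median of all genes moved to -0.12 in that comparison and the calls to 83 higher and 300 lower, against 132 and 215. Between the mice labelled Tet2-restored and ascorbate, the 1 gene became 444 with DESeq2, 582 with no filter, 0 with only the groups compared, and 3 with each of log2(FPKM + 1), all 8 libraries and the length offset (0 to 5 with libraries left out). For the primary library, the 15 genes became 222 with DESeq2, 272 with voom, 467 with no filter and 5 with 1 CPM in 2 libraries (6 to 45 with libraries left out), and the members called became 6, 3 and 7 with DESeq2, voom and no filter. The heavy chain sum of the primary library passed at -0.89 with no filter.

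Some estimates turned direction. The heavy chain sum in mice labelled Tet2-restored against PBS knockdown was -0.0079 with no filter and -0.13 with the length offset (-0.17 to 0.20 with libraries left out). Under ascorbate against PBS, Tapbp was -0.012 with library totals, B2m -0.090 with the length offset, and Psmb9 -0.12 with library totals, -0.15 with voom, -0.011 with no filter, -0.0082 and -0.0073 with log2(FPKM + 0.1) and log2(FPKM + 1), and -0.023 with the length offset. With libraries left out that comparison gave -0.027 to 0.58 for the members' median, -0.45 to 0.27 for H2-K1, -0.033 to 0.73 for H2-D1, -0.18 to 0.55 for B2m, -0.011 to 0.80 for Tap1, -0.021 to 0.22 for Tapbp, -0.36 to 0.29 for Psmb9, -2.96 to 0.39 for Nlrc5 and -0.22 to 0.48 for the heavy chain sum. For mice labelled Tet2-restored against ascorbate, Tap1 was 0.065 with library totals and Psmb10 -0.033 with the length offset. With libraries left out it gave -0.34 to 0.27 for the median, -0.72 to 0.0020 for H2-K1, -0.50 to 0.26 for H2-D1, -0.71 to 0.030 for B2m, -0.41 to 0.40 for Tap1, -0.0015 to 0.38 for Psmb8, -0.16 to 0.27 for Psmb10, -2.41 to 0.95 for Nlrc5 and -0.47 to 0.23 for the heavy chain sum. For the primary library Psmb5 was 0.0016 with library totals, 0.037 with voom, 0.013 with no filter, 0.010 and 0.0095 with log2(FPKM + 0.1) and log2(FPKM + 1) and 0.33 with the length offset (-0.040 to 0.097 with libraries left out), and Psmb7 was -0.012 to 0.10 with libraries left out. The causes were not tested.

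Groups of 1 to 3 libraries limit these comparisons, and Nlrc5 rests on 12 to 366 counts a library. Leaving out a restored-label or ascorbate mouse leaves 1 library in that group, with its spread taken from the other groups. No paired analysis was possible because the mouse numbers are not shared between groups.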
